A study of Mus musculus with 2 samples.

Results

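The odorant receptor genes of mouse chromosomes 1, 4 and 6 form several small, separate groups outside the large receptor arrays of the genome. They were taken as every entry of the deposited receptor table whose mm9 locus lies on 1 of these chromosomes, leaving out Olfr16 and Olfr62. This gave 79 of 1112 entries, with 27 on chromosome 1, 24 on chromosome 4 and 28 on chromosome 6. The RNA came from the olfactory epithelium of adult C57BL/6 mice. Both samples of the series are titled and genotyped as wild type, although the description of the second reads 3bko, which no source used here spells out. The table gives 1 FPKM per gene (a fragment count divided by the gene model's length and by the sequencing depth). Beside that value it names its samples wt and 3bko, and it does not say to which of the 2 samples the value belongs. Each value below is therefore the authors' single value, with no replicate error, and every difference between genes is a description without a test. None of 6 marker genes of the epithelium (Omp, Gnal, Cnga2, Adcy3, Gap43 and Cyp2g1) is in this receptor-only table, so the tissue label could not be checked. The sequencing depth is unknown.

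Odorant receptors are G-protein-coupled receptors on the cilia of olfactory sensory neurons. A mature neuron typically expresses a single receptor gene, from a single allele, and neurons that chose the same receptor send their axons to the same glomeruli of the olfactory bulb. Receptor genes arose by repeated local duplication, so neighbours in the genome are often close relatives. The MOR names used below group receptors by the similarity of their sequences. In RNA from a whole epithelium, fewer neurons expressing a receptor and less RNA per neuron cannot be told apart.

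By runs of receptor loci with less than 1 Mb between neighbours, the 79 genes fall into 8 clusters and 1 isolated gene. Chromosome 1 holds 8 genes at 94.4 to 94.5 Mb, called here the Olfr12 group, and 19 genes at 175.1 to 176.4 Mb, the Olfr414 group. On chromosome 4 lie 7 genes at 43.7 to 43.9 Mb, the OR37 group, 4 genes at 52.8 to 53.0 Mb, Olfr267 alone at 58.8 Mb, and 12 genes at 118.4 to 118.6 Mb, the Olfr1342 group. Chromosome 6 has a pair at 40.5 Mb, 21 genes at 41.7 to 43.2 Mb, the Olfr449 group, and 5 genes at 116.4 to 116.5 Mb, the Olfr213 group. Olfr16 (FPKM 1.38) and Olfr62 (FPKM 1.52) sit at the edges of the Olfr414 and Olfr1342 groups. All 79 entries are class II receptors or have no class I name. MOR names in RefSeq cover 77 of them and fall into 13 families, apart from Olfr458, which carries names of 3 families.

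The OR37 receptors are the best known of these genes. Unlike most receptors, whose neurons are scattered through a broad zone, OR37 neurons sit together in a central patch of the epithelium, and the receptors stand out by a longer loop between the sixth and the seventh membrane span. RefSeq gives OR37 names to 5 genes of the group at 43.7 Mb, namely Olfr155 (OR37A), Olfr156 (OR37B), Olfr157 (Or37c), Olfr29-ps1 (mOR37d) and Olfr159 (mOR37e). An alignment of the 12 coding sequences of family MOR262 shows the longer loop directly. In the lines below, copied from GENCODE M21 transcripts (GRCm38) and read 5′ to 3′, capitals mark a stretch of 18 bases (6 codons) that Olfr71 lacks.

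Olfr155: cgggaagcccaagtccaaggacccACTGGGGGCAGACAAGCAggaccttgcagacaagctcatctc
Olfr156: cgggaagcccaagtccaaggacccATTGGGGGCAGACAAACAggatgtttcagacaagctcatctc
Olfr29-ps1: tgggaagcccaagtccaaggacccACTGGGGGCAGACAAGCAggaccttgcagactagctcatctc
Olfr273: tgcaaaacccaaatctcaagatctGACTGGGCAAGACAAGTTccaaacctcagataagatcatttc
Olfr272: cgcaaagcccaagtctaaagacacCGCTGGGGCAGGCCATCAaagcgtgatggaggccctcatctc
Olfr71: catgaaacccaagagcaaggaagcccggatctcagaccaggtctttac
Olfr267: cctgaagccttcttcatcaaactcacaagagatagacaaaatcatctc

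All 5 OR37 genes carry the stretch, and so do Olfr272 and Olfr273 of the next cluster, at 52.8 to 53.0 Mb. Olfr70, Olfr71, Olfr267, Olfr270 and Olfr275 do not. The 7 genes with it had a median FPKM of 2.16 and ran from 0.0332 to 2.82, and the 5 without it had a median of 1.65 and ran from 0.767 to 3.25. The ranges overlap. The stretch therefore does not separate high from low receptors in these values.

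Within the OR37 genes the levels split by a wide margin. Olfr156 had an FPKM of 2.70 and Olfr155 had 2.45. Olfr157 had 0.503, Olfr159 had 0.0889 and Olfr29-ps1 had 0.0332. Only 2 of the 5, OR37A and OR37B, passed an FPKM of 1. Olfr155 (chromosome 4, 43867164 to 43868335) was listed 27.6-fold above Olfr159 (43782922 to 43783881), whose coding sequence is 91.4% identical, and 73.9-fold above Olfr29-ps1, which is 91.1% identical. Coding identity among the 5 ran from 85.7% to 92.7%. The share of the 50-mers of their coding sequences found in no other Olfr transcript ran from 60.2% to 73.9%. Reads of 50 bases from the remainder would fit more than 1 gene, so these values are uncertain. That length was chosen here and was not taken from the reads. In Olfr29-ps1 the reading frame meets a TAG stop at codon 280 of 321, within the line printed above, and RefSeq types the gene as a transcribed pseudogene. The other members of the group, Olfr71 (mOR17) and Olfr70 (mOR6), had an FPKM of 3.25 and 1.65, with all of their coding 50-mers unique.

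As a whole these receptors were listed near the level of the table. Over all 79 genes the median FPKM was 1.02 (interquartile range 0.502 to 2.49), against 1.09 over the whole table. An FPKM of 1 or more was listed for 40 of the 79 genes (50.6%), close to the 52.5% of all entries. An FPKM of 5 or more was listed for 9 genes, against 14.3% of all entries, and 4 genes reached 10, against 5.4% of all entries. The status NOTEST, which the authors' software gives to entries it did not test, was carried by 14 genes, against 18.3% of all entries. Those 14 ran from 0.0241 to 0.220, and the lowest gene with the status OK was Olfr159. None was listed at 0. With 7.10% of the table's entries, they held 6.11% of its summed FPKM, and the 9 genes at 5 or more held 50.8% of the FPKM summed over the 79.

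**Figure D1:**
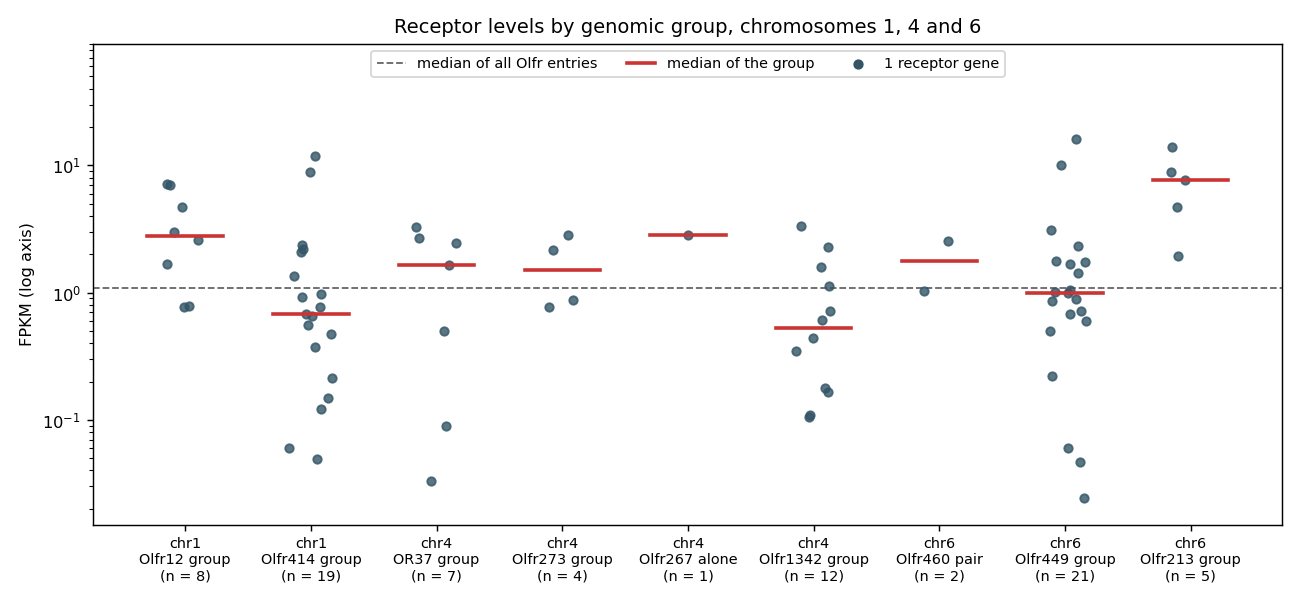
FPKM (log axis) of each of the 79 receptor genes in its genomic group, with each group's median as a red bar and the median of all 1112 entries, 1.09, as a dashed line; each point is 1 gene and there are no replicates. The Olfr213 group lies wholly above the dashed line, while the Olfr414, Olfr1342 and Olfr449 groups have medians below it and hold 13 of the 14 genes with the status NOTEST.

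The Olfr213 group of chromosome 6 had the highest median, 7.68 over 5 genes, which ranks second of the 29 clusters with at least 5 entries in the table. In genomic order Olfr211 had 8.80, Olfr212 had 7.68, Olfr213 had 13.9, Olfr214 had 4.75 and Olfr215 had 1.95. All 5 genes passed an FPKM of 1, and the highest was 7.11-fold above the lowest. Olfr211 belongs to family MOR253 and the other 4 to MOR119, a family with no entry elsewhere in the table. Olfr213 (chromosome 6, 116490473 to 116491456) and Olfr212 are 96.0% identical in coding sequence, the highest identity between any of the 79 genes, and 73.6% of the coding 50-mers of each are unique. The gene models also differ, since the locus of Olfr213 is as long as its coding sequence of 984 bases and that of Olfr212 spans 11450 bases.

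The Olfr12 group of chromosome 1 came next among clusters of at least 5, with a median of 2.79 over 8 genes and 6 of them at 1 or more. Its families lie in 2 blocks on opposite strands. On the minus strand, the MOR103 genes Olfr1416, Olfr1415 and Olfr1414 had 1.67, 3.00 and 2.58. On the plus strand follow the MOR208 genes, with Olfr1413 at 0.787, Olfr1412 at 7.16, Olfr1411 at 4.75, Olfr1410 at 0.775 and Olfr12 at 7.05. High and low genes thus lie side by side in the MOR208 block, where neighbouring Olfr1413 and Olfr1412 differ 9.11-fold and Olfr1410 and Olfr12 differ 9.09-fold. No gene of the group carried the status NOTEST.

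The Olfr414 group, on the distal part of chromosome 1, had a median of 0.676 over 19 genes, of which 6 reached an FPKM of 1. It opens with 5 genes of MOR267, the family of Olfr16, at 0.980 (Olfr1408), 1.35 (Olfr1406), 0.676 (Olfr218), 0.660 (Olfr1404) and 0.555 (Olfr418-ps1). After a gap of 770.8 kb come the MOR123 genes Olfr433 and Olfr432, at 0.377 and 0.121, and the MOR105 genes. In that family Olfr429 had 2.08 and Olfr424 had 0.916. Its other members, Olfr231, Olfr430, Olfr420 and Olfr421, had 0.770, 0.469, 0.213 and 0.0604. Among these lies Olfr426, which has no MOR name and the lowest value of the group, 0.0493.

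A further 3 MOR267 genes follow, with Olfr419 at 2.36, Olfr417 at 2.22 and Olfr248 at 0.147. The cluster ends in a pair of MOR103 genes, Olfr414 (176360561 to 176361515) at 11.9 and Olfr220 (176378756 to 176379733) at 8.81. These last 2 genes held 59.7% of the FPKM summed over the group. The other 17 genes reached at most 2.36 and had a median of 0.660. Olfr248 and Olfr414, which are neighbours, differ 80.9-fold.

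The MOR267 genes of chromosome 1 had a median of 0.828, with 3 of 8 at an FPKM of 1 or more. The 6 MOR267 entries elsewhere in the table ran from 1.58 to 14.5 with a median of 5.34. The highest of them, Olfr55 (14.5) and Olfr239 (11.1), have only 34.0% and 27.6% of their coding 50-mers unique. Their values, and with them that median, are uncertain. Of the 8, only Olfr419 and Olfr417 exceeded the lowest of these 6. Olfr16, which is left out here and whose RefSeq name is written in another form, is counted on neither side. Without replicates this difference within a family was not tested.

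**Figure D2:**
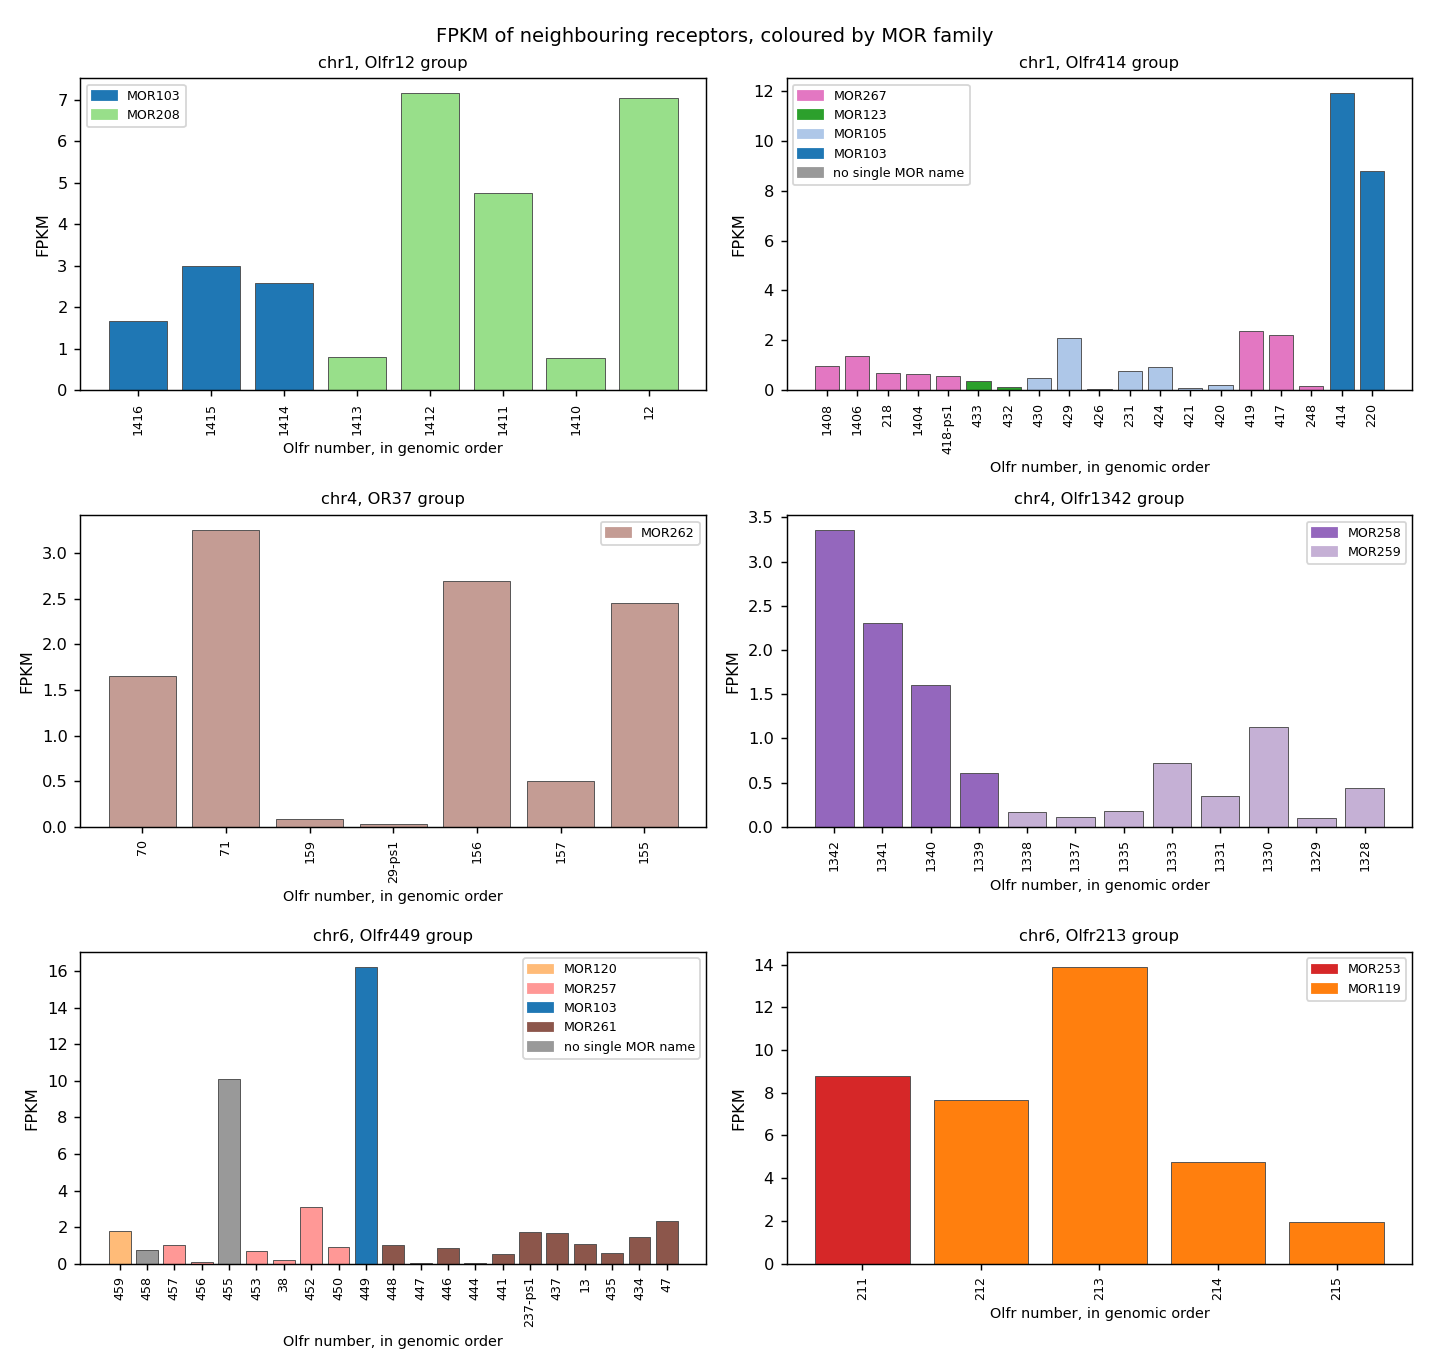
FPKM (linear axis from 0) of the receptors in the 6 clusters of at least 5 genes, in genomic order and coloured by MOR family, with grey bars for genes with no single MOR name and each bar 1 gene. The MOR103 genes Olfr414, Olfr220 and Olfr449, at 11.9, 8.81 and 16.2, stand beside neighbours of other families that are mostly under 3; Olfr16 and Olfr62 are not drawn.

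The Olfr449 group of chromosome 6 had a median of 0.989 over 21 genes, with 10 at an FPKM of 1 or more, and the widest range of all, 674-fold. Its highest gene, Olfr449 (42787882 to 42788817), had an FPKM of 16.2, the highest of the 79 genes and rank 23 of the table. It is the only MOR103 gene of chromosome 6 and stands between MOR257 and MOR261 genes, with Olfr450 at 0.891 on 1 side and Olfr448 at 0.989 on the other. Olfr455 (42488066 to 42489019), which has no MOR family of class I or class II among its RefSeq names, had 10.1, between Olfr456 at 0.0598 and Olfr453 at 0.685. Olfr449 and Olfr455 together held 57.2% of the FPKM summed over the group, and all their coding 50-mers were unique. The other 19 genes reached at most 3.09.

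At the proximal end of the group, Olfr459 (MOR120) had 1.78 and lies 687.8 kb from the next gene. The MOR257 genes had 1.02 (Olfr457), 0.0598 (Olfr456), 0.685 (Olfr453), 0.220 (Olfr38), 3.09 (Olfr452) and 0.891 (Olfr450), a median of 0.788. Olfr458, which carries a MOR257 name beside 2 others, had 0.723. All 11 MOR261 genes are on the plus strand in GENCODE and had a median of 0.989. The highest was Olfr47 (IB12) at 2.33, followed by Olfr237-ps1 at 1.74, Olfr437 at 1.69, Olfr434 at 1.44 and Olfr13 (K7) at 1.06. Olfr446, Olfr435 and Olfr441 had 0.851, 0.593 and 0.50. Olfr444 had 0.0466 and Olfr447 had 0.0241, the lowest value of the 79 genes.

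The MOR103 genes, at 3 sites on these chromosomes, all had an FPKM above 1. Their 6 members ran from 1.67 to 16.2 with a median of 5.90. The 11 MOR103 entries on other chromosomes ran from 0.845 to 28.7 with a median of 4.42. The order of sites here was Olfr449 on chromosome 6, then the pair in the Olfr414 group, then the 3 genes of the Olfr12 group, with no overlap between sites. In those 3 genes 61.3% to 75.5% of the coding 50-mers are unique, so their values are less certain. In Olfr449, Olfr414 and Olfr220 all are unique. The family is not a set of near copies across sites, since the coding sequences of Olfr449 and its closest relative among the 79, Olfr1414, are 64.9% identical, and Olfr414 and Olfr220 are 60.8% identical.

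The Olfr1342 group of chromosome 4 had the lowest median, 0.524 over 12 genes, which ranks 27 of the 29 clusters. It too divides by family. The 4 MOR258 genes come first and had 3.36 (Olfr1342), 2.30 (Olfr1341), 1.60 (Olfr1340) and 0.606 (Olfr1339). The 8 MOR259 genes had a median of 0.263, and Olfr1330, at 1.13, was the only one to reach an FPKM of 1. Olfr1333 had 0.717, Olfr1328 had 0.442 and Olfr1331 had 0.349. Olfr1335, Olfr1338, Olfr1337 and Olfr1329 had 0.176, 0.164, 0.109 and 0.105, and all 4 carry the status NOTEST. The lowest MOR258 value, 0.606, lies within the range of MOR259, so the blocks overlap. The MOR259 genes Olfr1333 and Olfr1331 are 95.7% identical, and only 54.1% and 61.0% of their coding 50-mers are unique, the former being the lowest share among the 79 genes. Their values are uncertain for that reason, while all coding 50-mers of the 4 MOR258 genes were unique.

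The isolated gene and the small groups lay in a narrow band of levels, though fewer genes also give narrower ranges. Olfr267, alone at 58797651 to 58798592 on chromosome 4, had 2.86. The cluster at 52.8 to 53.0 Mb had 2.82 (Olfr273), 2.16 (Olfr272), 0.874 (Olfr270) and 0.767 (Olfr275). The MOR120 pair at 40.5 Mb of chromosome 6 had 2.53 (Olfr460) and 1.02 (Olfr461). Together these 7 genes had a median of 2.16, against 0.985 for the 72 genes of the larger clusters, and their highest value was 3.73-fold above the lowest. None carried NOTEST, and none reached an FPKM of 5. The MOR120 genes are close in level across sites, since Olfr459, in the Olfr449 group, had 1.78.

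On the log2(FPKM + 0.1) scale, where 0.1 is added before taking logs, the median of the Olfr12 group was 1.89 above that of the Olfr414 group. On chromosome 4, the OR37 group was 1.50 above the Olfr1342 group. The Olfr213 group was 2.84 above the Olfr449 group on chromosome 6. These sizes depend on the constant added: with 1 in place of 0.1 they were 1.18, 0.80 and 2.13.

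Neighbouring receptors often differed in level, about as much as adjacent entries over the whole table. Over the 70 pairs of adjacent genes within a cluster the median absolute difference was 1.33 on the log2(FPKM + 0.1) scale. Of these pairs, 24 (34.3%) differed by 2 or more on that scale. The 1063 adjacent pairs of the whole table had a median of 1.37, and 32.1% of them differed by 2 or more. For all pairs of the 79 genes within a cluster, adjacent or not, the median was 1.60. Adjacent genes of the same family (55 pairs) had a median of 1.23, and the 15 adjacent pairs that do not share 1 family name had 2.54. Those 15 include the pairs with Olfr426, Olfr455 or Olfr458, which have no single MOR name. The same split was not made over the whole table. The largest step between neighbours was from Olfr456 at 0.0598 to Olfr455 at 10.1, which is 169-fold. The step from Olfr29-ps1 to Olfr156 was 81.1-fold, and that from Olfr1330 to Olfr1329 was 10.8-fold, the largest of the Olfr1342 group.

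Close copies differed less at the median than other pairs, but some differed widely. The median absolute difference was 1.16 on the log2(FPKM + 0.1) scale for pairs with at least 90% identical coding sequences. It was 1.56 at 80% to 90%, 1.49 at 60% to 80% and 1.73 below 60%. Many pairs at 90% or more lie among the MOR259 genes of the Olfr1342 group, listed at 0.105 to 1.13. At such low values the added 0.1 shrinks differences. How much of the lower median comes from this family or from the added 0.1 was not tested. Pairs 10-fold or more apart made up 27.8% of those at 90% identity or more and 26.5% of all pairs within a cluster. Of the 36 pairs with at least 90% identical coding sequences, all of which lie within a single cluster, 10 differed 10-fold or more in FPKM and 13 differed less than 2-fold. The closest relative among the 79 genes lay in the same cluster for 67 of 78 genes with a coding sequence in GENCODE. In the pairs below, the first 2 are shown because near-identical copies sit at different levels and the last because it is the most identical pair of the 79 genes. The lines give the 60 coding bases with most differences, capitals mark the bases that differ, and the transcripts are again those of GENCODE M21.

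Olfr417: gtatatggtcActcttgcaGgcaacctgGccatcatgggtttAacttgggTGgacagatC
Olfr248: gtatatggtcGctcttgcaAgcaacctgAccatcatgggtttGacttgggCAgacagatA
Olfr457: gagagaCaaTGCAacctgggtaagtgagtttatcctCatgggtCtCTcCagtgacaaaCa
Olfr456: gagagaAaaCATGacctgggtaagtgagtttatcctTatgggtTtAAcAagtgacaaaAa
Olfr212: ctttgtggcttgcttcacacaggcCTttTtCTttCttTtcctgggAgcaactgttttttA
Olfr213: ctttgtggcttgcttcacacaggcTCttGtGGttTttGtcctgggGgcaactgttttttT

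Olfr417 (2.22) and Olfr248 (0.147) are 94.8% identical and differ 15.0-fold. Olfr457 (1.02) and Olfr456 (0.0598), at 95.5% identity, differ 17.0-fold. Olfr212 and Olfr213 differ 1.81-fold at 96.0% identity. The share of unique coding 50-mers was 79.7% for Olfr417 and for Olfr248, 63.2% for Olfr457 and 70.6% for Olfr456. How the authors assigned reads that match several genes is not stated in the labels or headers, and its part in these values was not tested. Other wide pairs were Olfr452 (3.09) and Olfr38 (0.220), at 90.5% identity, and Olfr237-ps1 (1.74) and Olfr444 (0.0466), at 93.7%. Their shares of unique coding 50-mers were 72.8% for Olfr452 and for Olfr38, 62.6% for Olfr237-ps1 and 83.7% for Olfr444.

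**Figure D3:**
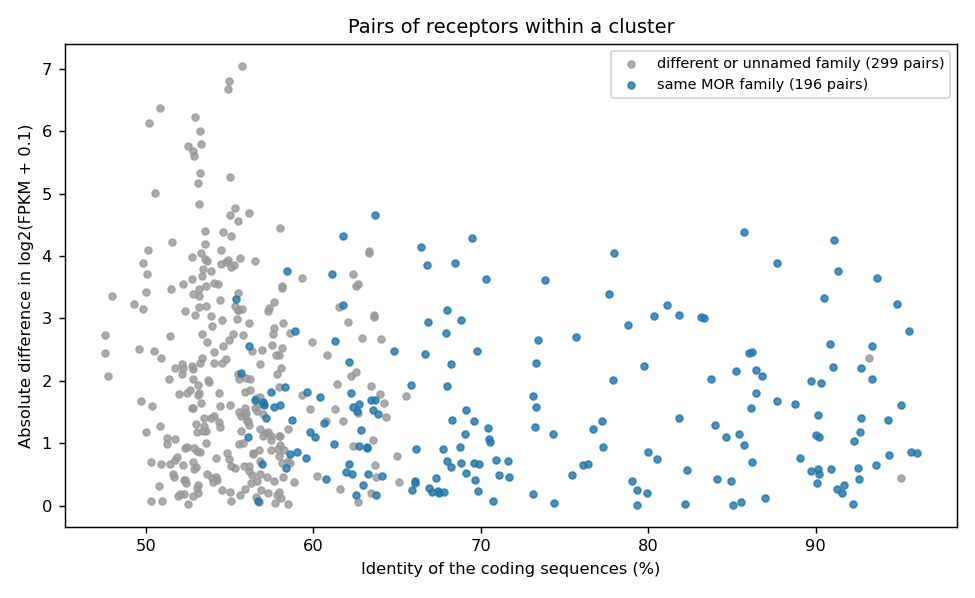
Absolute difference in log2(FPKM + 0.1) against the identity of the coding sequences (%) for the 495 pairs of receptors within a cluster, 1 point a pair, blue where both belong to 1 MOR family. Pairs above 90% identity still spread from 0.03 to 4.26; pairs share genes and are not independent.

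The 4 entries classed as pseudogenes ran from 0.0332 to 1.74, with a median of 0.308 against 1.02 for the other 75 genes. Olfr237-ps1 had 1.74, Olfr418-ps1 had 0.555, Olfr421 had 0.0604 and Olfr29-ps1 had 0.0332. Olfr237-ps1 and Olfr418-ps1 are protein coding under their current RefSeq symbols, and their GENCODE coding sequences have no stop before the end. Olfr421, a pseudogene in RefSeq, meets a TGA stop at codon 269 of 316, and Olfr29-ps1 was described above. The 2 entries with an intact frame had the higher values and the 2 with an early stop had the lower ones, both with the status NOTEST. With 2 genes on each side, a link between frame and level was not tested. Olfr421 and Olfr29-ps1 also have a single annotated exon, and only 62.6% of the coding 50-mers of Olfr237-ps1 are unique.

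Annotated transcript structure varied among the genes. GENCODE M21 holds 78 of the 79, all but Olfr426. Of these, 10 have a single annotated exon, 46 have 2 and 22 have 3 or more. These counts need not be those of the models behind the FPKM. Olfr275 has a single exon of 960 bases in GENCODE, but its deposited locus spans 13666 bases. How far the annotated exon number itself depends on a gene's level was not tested. The median FPKM was 0.107 for genes with 1 exon, 1.63 with 2 and 0.883 with 3 or more, while over the whole table it was 0.0891, 1.05 and 1.71. Among these genes the median was thus not highest at 3 or more exons. Of the 10 single-exon genes only Olfr215, at 1.95, reached an FPKM of 1, and 7 had the status NOTEST. The next highest was Olfr275, at 0.767, and the other 8 were Olfr421, Olfr248, Olfr159, Olfr29-ps1, Olfr1337, Olfr1335, Olfr1329 and Olfr456, all under 0.2. Low values were not limited to single-exon genes, since Olfr447 and Olfr444, at 0.0241 and 0.0466, have 2 exons and Olfr1338 and Olfr38, at 0.164 and 0.220, have 3.

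**Figure D4:**
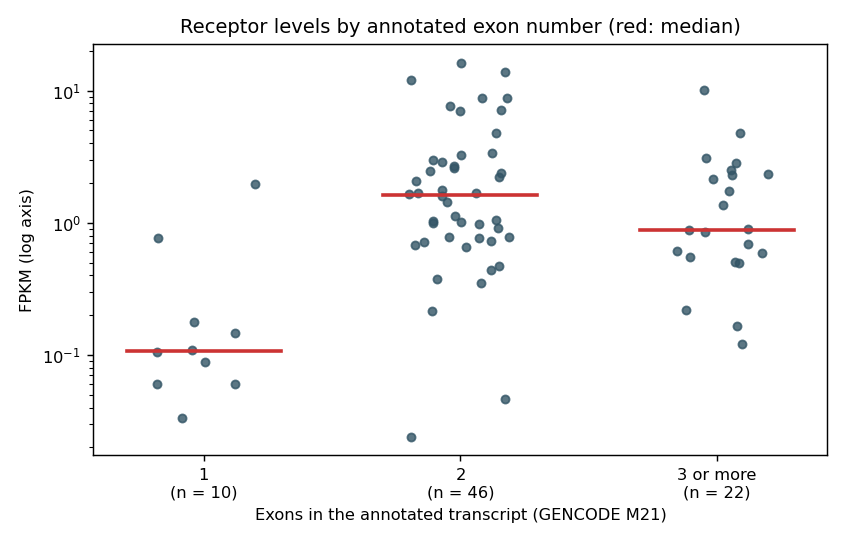
FPKM (log axis) of the 78 receptor genes held by GENCODE M21, by the number of exons in the annotated transcript, 1 point a gene and the median in red. The medians are 0.107, 1.63 and 0.883 for 1, 2 and 3 or more exons, and the groups overlap.

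Promoters were searched for TAATTA and TAATTG, the core of homeodomain sites such as those of Lhx2, on both strands. TAATTA reads the same on either strand, and a promoter with several matches, overlapping or not, was counted once. RefSeq promoters (GRCm38.p6, 250 bases before to 50 after the start) matched 64 of the 79 genes by symbol, and 15 of them (23.4%) hold at least 1 of the motifs. The share was 37.6% over 915 Olfr genes and 12.4% over all 32851 promoters of the same length. An Olfr gene was counted if any of its promoters held a motif, whereas the 12.4% is counted per promoter. The median FPKM was 0.980 for the 15 genes with a motif and 1.35 for the 49 without, with 7 and 28 genes at an FPKM of 1 or more. Over the 915 Olfr genes the medians were 1.03 with a motif and 1.17 without. There, 177 of 344 genes with a motif and 308 of 571 without had an FPKM of 1 or more. A match is a description of the sequence and not a binding site.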

How the data were processed

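The deposited table holds 1 FPKM value per Olfr entry, per the file headers. TopHat2, Bowtie2 and Cuffdiff and the build mm9 are named in the submitters' processing notes, without versions or roles; no label or header gives the annotation or the treatment of multiply matching reads. Among 162 low entries (FPKM under 0.3, coding-only locus), 33.3% fell no more than 0.1 from a whole number of reads at the best of the steps tried, so reads were not recovered. In 54 of the 79 entries (68.4%) the deposited locus has the coding sequence's length, or exactly 3 bases more or less. Their FPKM, as deposited, thus leaves out untranslated regions.

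Locus starts had 1 added. RefSeq matched 75 entries by symbol and 3 by an older symbol (1 unmatched). Class I means a MOR family from 1 to 42. GENCODE M21 (GRCm38) gave exons, strand and coding sequences, from the longest coding transcript, and no coordinates. Pairs were aligned globally with Biopython 1.88, identity being matches over all columns; MOR262 was aligned with MAFFT 7.526. Cluster assignment and identity were tested on simulated data. Protein sequences were not used here, so the planned protein identity was replaced by coding identity. Medians and counts are descriptions; no test was run. The genes, lists and thresholds were chosen with earlier results of these data known. Named genes were all entries of small groups, the 4 highest and 3 lowest of each larger cluster, entries at 5 or more, pseudogenes, and the widest neighbours and closest copies; others were added after their values were seen.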

Additional observations from a re-analysis of the deposited data

How the results depend on the processing

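Of 64 alternative values for 16 results, 58 stayed within the tolerance set for their kind, none changed direction and 6 moved. For counts that tolerance was wide: 59 genes had an FPKM of 0.5 or more and 27 had 2 or more, against 40 at 1 or more. With a pseudocount of 1 the difference between cluster medians was 1.18 on chromosome 1, 0.80 on chromosome 4 and 2.13 on chromosome 6, and the median difference between neighbours was 0.69, because a larger constant compresses low values. Without the entries of status NOTEST, all at 0.220 or less, the median of the 79 genes was 1.65 in place of 1.02. With less than 0.5 Mb between neighbours there were 2 isolated entries instead of 1, as Olfr459 stands alone. Without entries under 50% unique 50-mers, which removes none of the 79 genes but does remove other receptors, their share of the summed FPKM was 6.58%. Medians counted as within tolerance inside the main median's binomial 95% interval over genes, which is wide for small clusters. No paired analysis was possible because no value can be tied to either sample; for the same reason no replicate could be left out. Depth is unknown, so counting error at low FPKM could not be given.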
